A study of Mus musculus with 12 samples.

Results

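The autophagy machinery of the mouse cortex is described here through 38 genes, chosen by symbol from the 24062 genes of a raw count table. They are 5 genes of the kinase complex that starts autophagy, 6 of the lipid kinase complex, 5 that supply or read membrane lipids, 10 of the conjugation system, 5 of the ATG8 family, 5 cargo receptors and 2 that act late. All 38 symbols were found, and all 38 genes had enough counts to be tested. RNA was sequenced from the cortex of 9-month-old mice, with 3 libraries in each of 4 groups. WT mice carried neither change. Tia1+/- mice carried 1 disrupted copy of Tia1, which encodes an RNA-binding protein of stress granules. PS19 mice expressed human P301S tau, a mutant form that aggregates, from a transgene under the Prnp promoter and had both copies of Tia1. P301S Tia1+/- mice carried the transgene together with 1 disrupted copy of Tia1. The PS19 and Tia1 lines were crossed, and the tau transgenic groups came from littermates of that cross. Mice at the end stage of disease had been left out by the study, so the tau groups hold mice without its late motor signs.

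Autophagy encloses cytoplasm, protein aggregates and organelles in a double membrane that then fuses with the lysosome. A kinase complex around ULK1 and a lipid kinase complex around beclin 1 start the membrane, the lipid carrier ATG2 and the scramblase ATG9A help it grow, and 2 linked conjugation systems attach LC3 and GABARAP proteins to it. Receptors such as p62, encoded by Sqstm1, bind both ubiquitinated cargo and these proteins, and tau aggregates are among the cargo that autophagy is known to clear in neurons. Much of this control acts on proteins, by phosphorylation and cleavage, which RNA counts do not measure.

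The libraries held between 11978962 and 19146484 counts, of which the 38 genes took from 0.428% to 0.467%. Levels are given as CPM, which are counts per 1 M of library size after TMM normalization. Tia1, the targeted gene, averaged 82.0 ± 10.3 CPM in WT against 73.5 ± 3.87 in PS19 (SD, n = 3), and was at 68.0 ± 10.3 in Tia1+/- and 74.7 ± 2.76 in P301S Tia1+/- libraries, so its level did not separate the groups. Prnp, whose promoter drives the transgene, lay from 2018 to 2158 CPM in PS19, above the other 9 libraries. It lay from 1404 to 1535 in the libraries labelled P301S Tia1+/-, within the 1334 to 1879 of WT. In the libraries labelled Tia1+/- it lay from 996 to 1922. Mapt, the mouse tau gene, showed a like order, at 439 to 462 CPM in PS19 and 336 to 357 in the libraries labelled P301S Tia1+/-, against 256 to 413 in WT and 344 to 502 in Tia1+/-. These genes thus set PS19 apart from WT and give no sign of the transgene in the libraries labelled P301S Tia1+/-, although neither is a direct measure of human tau RNA. All groups are named by the sample titles, and tau libraries below are those labelled as carrying tau. The separate genotype field is exchanged between the Tia1+/- and the P301S Tia1+/- libraries, and with that field in place of the titles 0 of the 38 genes were called as well. Xist, which is transcribed from the inactive X chromosome of females, was between 217 and 367 CPM in both Tia1+/- groups and at most 0.783 CPM in WT and PS19, while the Y-linked gene Ddx3y had the reverse pattern, so that Tia1 genotype and sex cannot be told apart in these libraries. The study's methods give the mice as male except where noted, and a reading of these genes as female sex would go against that. PS19 against WT and P301S Tia1+/- against Tia1+/- lie within 1 such pattern. The 8 neuron markers were present in every library, at summed levels between 5783 and 9599 CPM. They were lower in P301S Tia1+/-, at 6372 to 7228, than in PS19, at 7827 to 9344, without overlap. The 8 olfactory bulb markers summed to 1023 CPM in WT replicate 1 and to between 634 and 780 in the P301S Tia1+/- libraries, against 5.92 to 146 in the other 8. The 7 striatum markers reached 1836 CPM in Tia1+/- replicate 3 and stayed between 130 and 336 elsewhere. Markers of other cells also differed without overlap between compared groups. Astrocyte markers summed to 1519 to 1650 CPM in P301S Tia1+/- against 1019 to 1417 in Tia1+/-. Choroid plexus markers summed to 10.2 to 45.8 CPM in PS19 against 2.74 to 7.84 in WT. Microglia markers summed to 263 to 401 CPM in PS19 against 209.7 to 239 in WT, oligodendrocyte markers to 3079 to 4051 in Tia1+/- against 1715 to 2593 in WT, and inhibitory neuron markers to 1287 to 1491 in P301S Tia1+/- against 685 to 805 in PS19. The bulb and striatum differences move with the P301S Tia1+/- group and with single libraries. So do those of the inhibitory neuron markers, at 1710 CPM in WT replicate 1 against 930 and 893 in the other WT libraries. They reached 1674 in Tia1+/- replicate 3 against 719 and 774 in the other Tia1+/- libraries. The microglia and oligodendrocyte differences move with whole groups. The part of all these markers in the values below was not tested beyond the fit with the bulb level as a covariate. In whole tissue, fewer cells of a type and less RNA per cell cannot be told apart.

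**Figure D1:**
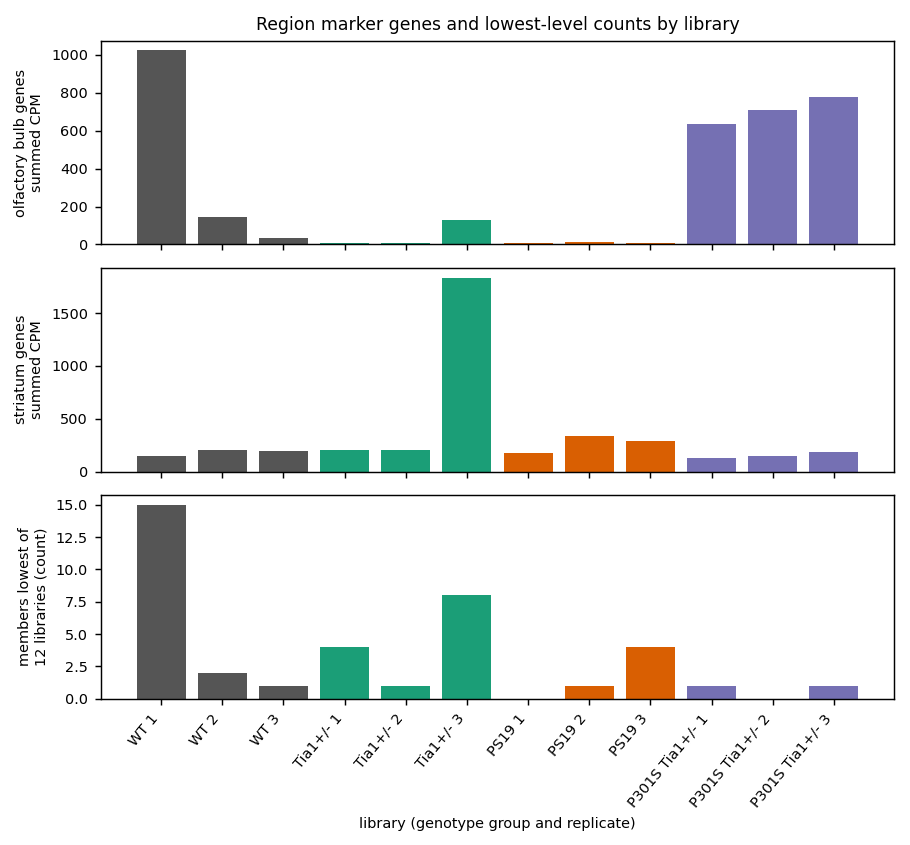
Summed CPM of 8 olfactory bulb genes (top) and 7 striatum genes (middle) in each library, and the number of the 38 autophagy genes whose level was lowest of all 12 libraries in that library (bottom). WT replicate 1, with 1023 CPM of bulb genes, was lowest for 15 genes, and Tia1+/- replicate 3, with 1836 CPM of striatum genes, for 8. The lowest library was not counted over all genes tested.

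The same libraries stood at the edges of the autophagy genes. How often each library was lowest or highest over all genes tested was not counted, so this cannot be called particular to the 38. WT replicate 1 had the lowest level of all 12 libraries in 15 of the 38 genes, among them Ulk1, Atg9a, Atg7, Map1lc3b and Gabarapl1, and the highest in 6, among them Atg12, Gabarap and Tax1bp1. Tia1+/- replicate 3 had the lowest level in 8 genes, among them Becn1, Atg5, Sqstm1 and Optn. Tia1+/- replicate 1 had the highest level in 7, and the remaining libraries were lowest in at most 4 genes each. The P301S Tia1+/- libraries, whose bulb markers came next to those of WT replicate 1, were lowest in 2 genes together. The spread was small for most genes. The highest library exceeded the lowest by a median factor of 1.47, by less than 1.5 in 22 genes, and by more than 2 only in Atg4c.

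**Figure D2:**
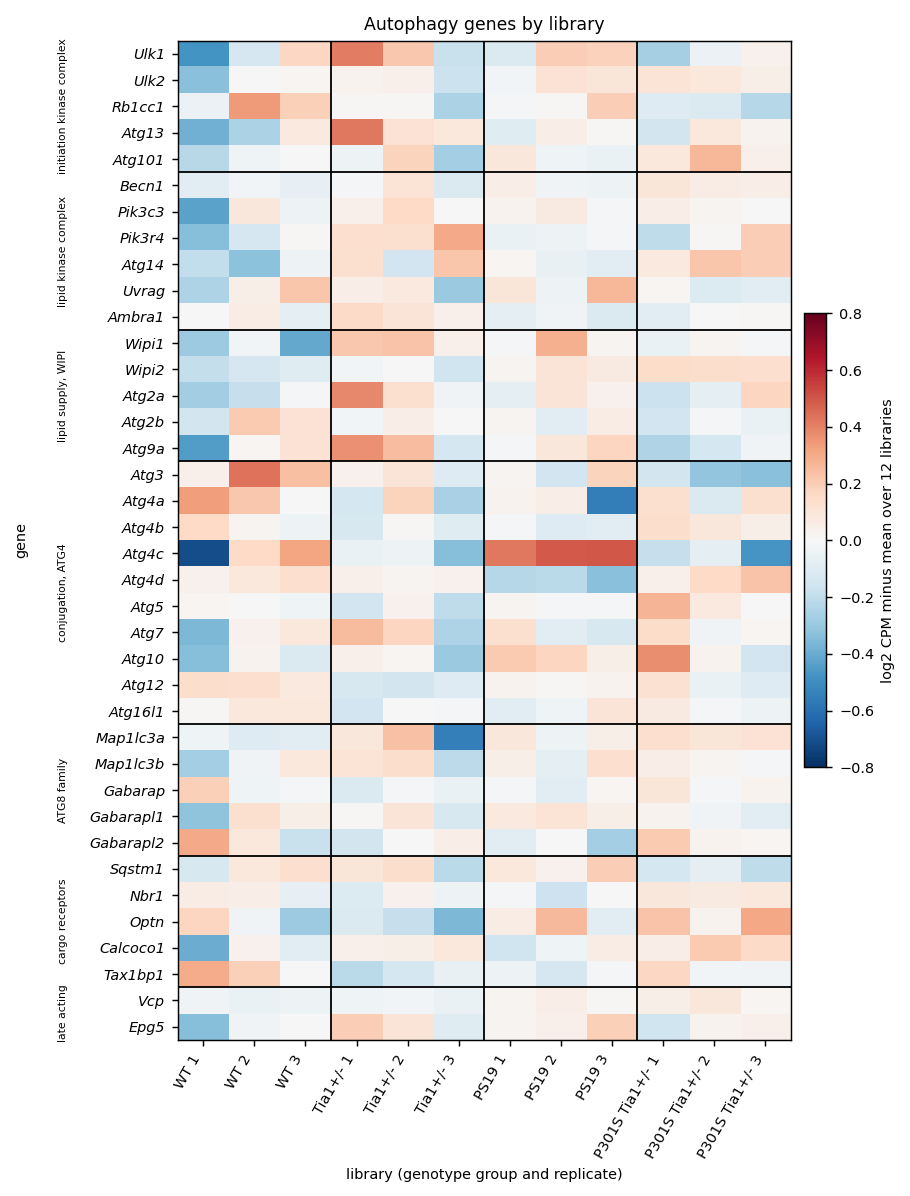
log2 CPM of each of the 38 autophagy genes in each of the 12 libraries, as the difference from that gene's mean over the libraries (colour), with genes in rows by role and libraries in columns by group. Most cells are pale. Atg4c is dark red in the 3 PS19 libraries and dark blue in WT replicate 1, whose column is blue for most of the initiation genes.

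Compared per kilobase of RefSeq mRNA exons, the ATG8 genes, whose products coat the membrane, stood among the highest. Gabarapl1, of the GABARAP branch of the ATG8 family, had 347 CPM per kb, followed by the receptor gene Sqstm1 with 159 and by Vcp, an ATPase that extracts ubiquitinated proteins, with 129. All 5 ATG8 genes lay among the 8 highest. In the initiation complex, Rb1cc1, which encodes the scaffold FIP200, had 30.99 CPM per kb and Ulk1, its kinase, 6.43. The lipid kinase complex ranged from Becn1 at 22.3 to Atg14 at 7.03. Wipi2, a reader of the lipid that this kinase makes, led the lipid genes at 27.5, and Atg2a had 4.09. Atg16l1, part of the complex that places LC3 on the membrane, led the conjugation genes at 25.2. The lowest of all was the X-linked protease gene Atg4a at 2.27. Among receptors Optn was lowest at 6.04, and Epg5, a tether between autophagosome and lysosome, had 10.8. The median over the 38 genes was 17.2. The lengths are those of annotated mRNAs and not of the isoforms present in these samples, so nearby ranks are not separated.

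**Figure D3:**
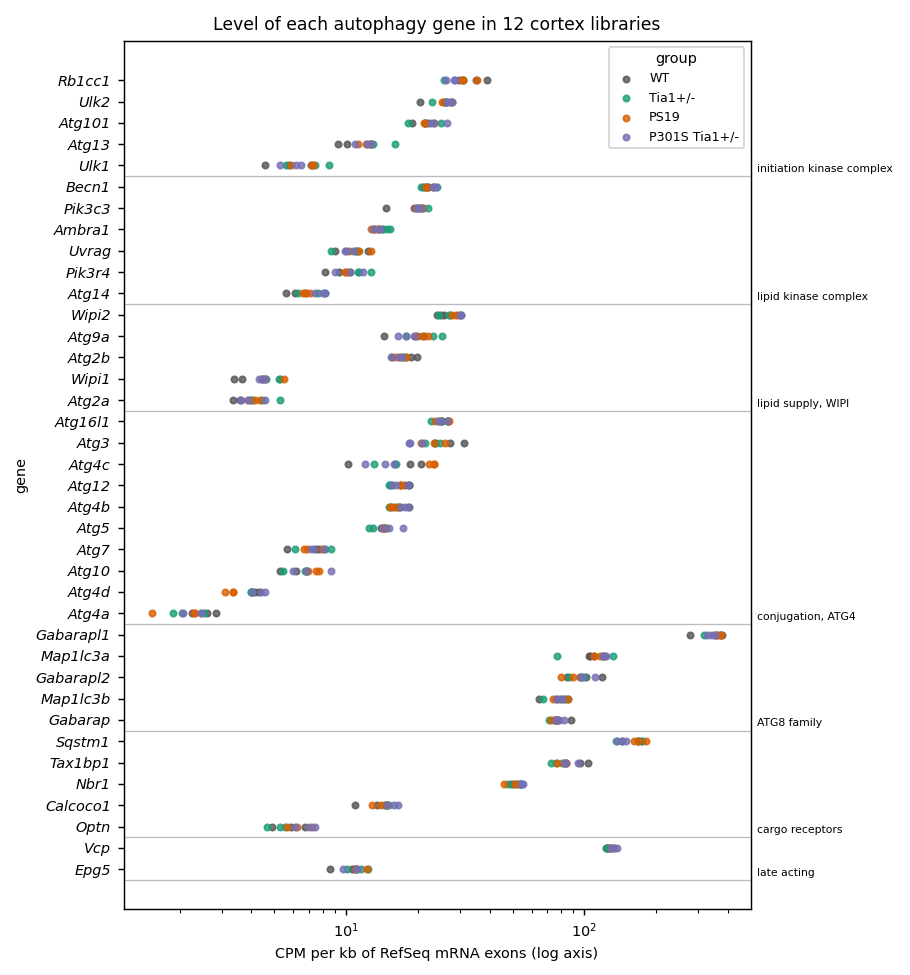
Level of each of the 38 autophagy genes in CPM per kb of RefSeq mRNA exons (horizontal log axis), 1 point per library coloured by group, with genes in rows ordered by mean level within each role. The ATG8 genes and Sqstm1, Tax1bp1 and Vcp lie to the right, with Gabarapl1 highest at a mean of 347, and Atg4a, Atg4d and Atg2a to the left.

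None of the 38 genes passed edgeR's test on all 12 libraries in any comparison, while other fits called some. With edgeR's quasi-likelihood test on all 12 libraries, 0 of 38 had an adjusted p under 0.05 between PS19 and WT, where 0% of the 15440 genes tested did. Between P301S Tia1+/- and PS19 it was 0 of 38 against 0.24% of all genes, and between Tia1+/- and WT 0 of 38 against 0.712%. Between P301S Tia1+/- and Tia1+/- it was 0 of 38 against 0%. The interaction, which is the effect of Tia1+/- with tau less that without tau, called 0 of 38 against 0.00648%. The effect of tau over both Tia1 genotypes called 0 of 38 against 0%, and that of Tia1+/- over both tau genotypes 0 of 38 against 0.44%. At an unadjusted p under 0.05 the members numbered 5, 4, 7, 4, 4, 3 and 8 in that order. The share of all genes at that threshold was 16.3%, 19.3%, 19.1%, 15.6%, 22.9%, 8.39% and 15.6%. The share of the 38 genes lay below that background in 6 of the 7 comparisons and above it, at 21.1%, for Tia1+/- over both tau genotypes. DESeq2's Wald test, fitted to the same 12 libraries, called 1, 2, 2, 0, 1, 1 and 0 members, where it called 2.79%, 5.31%, 6.6%, 2.53%, 7.65%, 0.49% and 4.86% of all genes. With the bulb level as a covariate, edgeR called 0, 2, 3, 4, 1, 1 and 0 members, against 3.37%, 6.35%, 7.68%, 7.59%, 7.12%, 0.816% and 6.31% of all genes. The members called with that covariate were Atg7 and Map1lc3b for P301S Tia1+/- against PS19, Atg4c, Rb1cc1 and Uvrag for Tia1+/- against WT, Atg4c, Map1lc3b, Ulk2 and Uvrag for P301S Tia1+/- against Tia1+/-, Uvrag for the interaction and Wipi2 for tau over both Tia1 genotypes.

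Within edgeR's fit on all 12 libraries, the intervals bound how far these genes could have differed. The fit with the bulb level as a covariate gave values outside them for several genes, so they do not bound that fit. Among these were Map1lc3b, Atg4c and Atg7 in P301S Tia1+/- against PS19, and Uvrag in Tia1+/- against WT. Atg4c, Ulk2 and Uvrag were outside in P301S Tia1+/- against Tia1+/-. Between PS19 and WT, the 95% interval of the log2 fold change lay within −1 to 1 for 38 genes and within −0.5 to 0.5 for 31. Between P301S Tia1+/- and PS19 it lay within −1 to 1 for 37, with Atg4c the exception, and within −0.5 to 0.5 for 32. Between Tia1+/- and WT the numbers were 38 and 28, and between P301S Tia1+/- and Tia1+/- they were 38 and 30. The median log2 fold change of the 38 genes was 0.089 for PS19 against WT, 0.020 for P301S Tia1+/- against PS19, 0.036 for Tia1+/- against WT and 0.066 for P301S Tia1+/- against Tia1+/-, with 25, 22, 21 and 21 of the 38 above 0. Over all genes tested, 49%, 51.5%, 50.7% and 51.1% were above 0. The medians were sensitive to single libraries. For PS19 against WT the median was 0.016 without WT replicate 1, and the other 3 changed sign, to −0.018 without PS19 replicate 1, −0.030 without Tia1+/- replicate 2 and −0.019 without Tia1+/- replicate 3. With the bulb level as a covariate, 8, 32, 9 and 32 of the 38 were above 0 in the same order, so the majority turned in PS19 against WT and in Tia1+/- against WT. Over all 15440 genes tested in that fit, 7729, 7693, 7883 and 7592 were above 0.

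**Figure D4:**
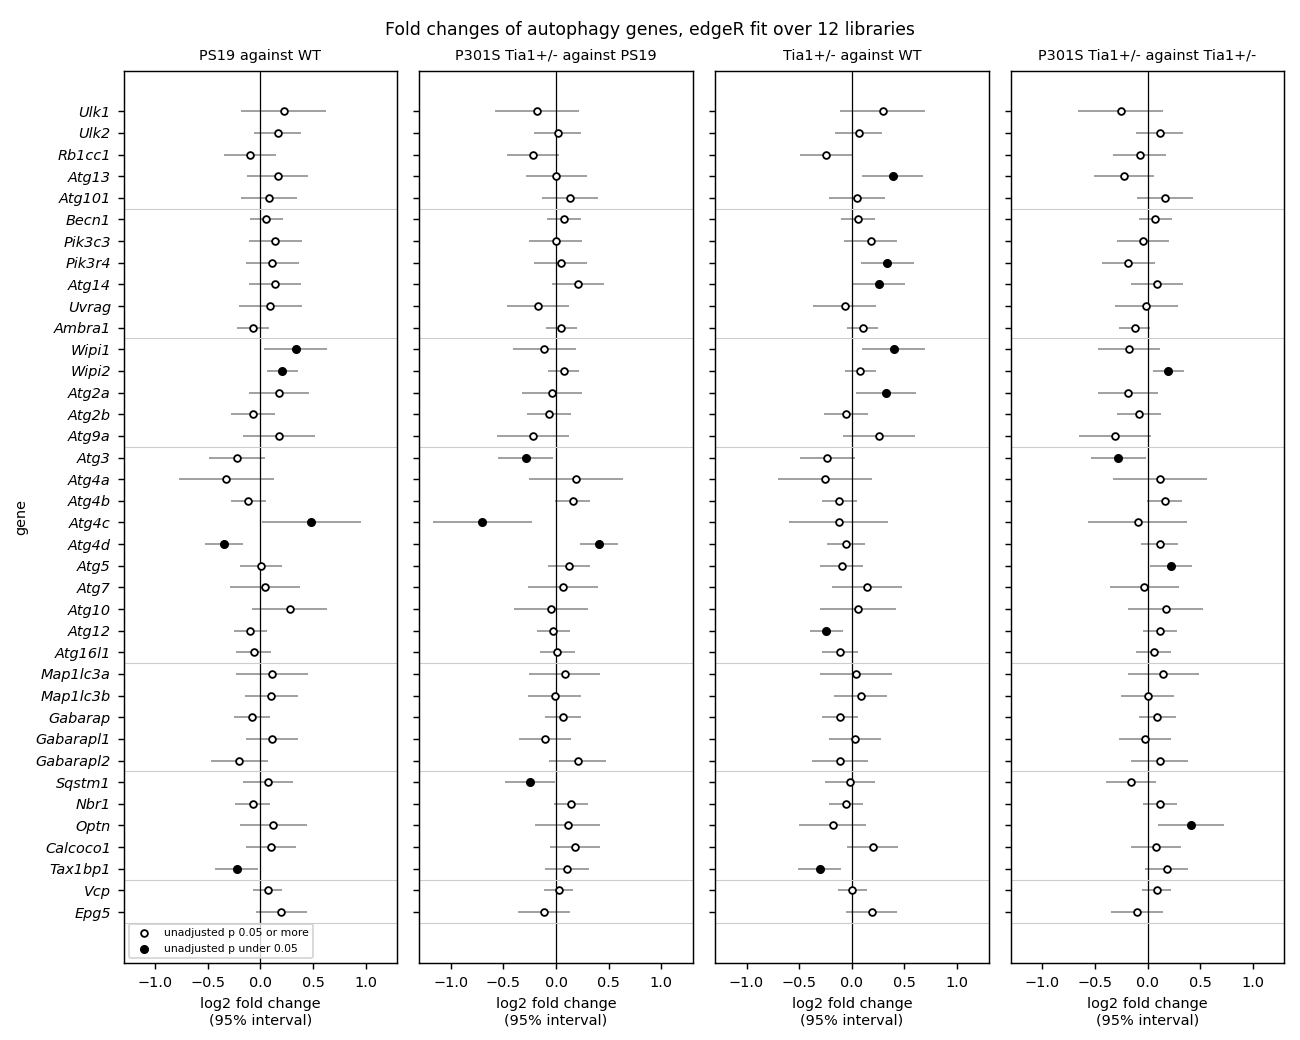
log2 fold change (points) with 95% interval (lines) of each of the 38 autophagy genes in 4 comparisons of 3 against 3 libraries, from the edgeR fit over all 12 libraries. Filled points had an unadjusted p under 0.05, which held for 5, 4, 7 and 4 genes from left to right, and none had an adjusted p under 0.05.

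Groups whose 3 libraries do not overlap were counted as a second description. Between PS19 and WT, 9 of the 38 genes were apart in this way, where 20.8% of all genes were. Wipi1, Wipi2, Atg4c, Atg10, Vcp and Epg5 lay higher in every PS19 library and Atg4d, Atg12 and Tax1bp1 lower. Between P301S Tia1+/- and PS19, 12 of the 38 were apart against 38.5% of all genes. Between Tia1+/- and WT it was 7 of 38 against 20%, and between P301S Tia1+/- and Tia1+/- 11 of 38 against 26%. The titled tau groups of 3 members were apart from their controls in opposite directions in the 2 Tia1 genotypes, against 4.8% of all genes. These were Atg4d, Tax1bp1 and Wipi1 of the 38. The genotype field in place of the titles reverses the sign of P301S Tia1+/- against Tia1+/-. Each of these members then moves in the same direction in the 2 Tia1 genotypes, so the opposite directions rest on the titles. For the titled Tia1+/- groups with and without tau, opposite directions held for 0 of the 38 against 3.23%.

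In the initiation complex, which senses nutrient and energy state through mTOR and AMPK, edgeR on all 12 libraries called 0 of 5 genes in any comparison. With the bulb level as a covariate it called Rb1cc1 for Tia1+/- against WT, with a log2 fold change of −0.45 (adjusted p = 0.0358), and Ulk2 for P301S Tia1+/- against Tia1+/-, with 0.48 (adjusted p = 0.0335 from edgeR). Ulk1 had 23.8, 30.1 and 37.03 CPM in the 3 WT libraries and 30.5, 37.9 and 37.6 in PS19, with 43.95, 38.4 and 29.2 in Tia1+/- and 27.5, 32.03 and 33.8 in P301S Tia1+/-. The 4 groups overlap, and the lowest library was WT replicate 1. Its log2 fold change was 0.22 ± 0.18 (SE; edgeR, adjusted p = 0.568) for PS19 against WT, with a 95% interval of −0.18 to 0.62. Rb1cc1 stood at 226, 297 and 267 CPM in WT and at 233, 236 and 268 in PS19 mice, against 235, 236 and 197 in Tia1+/- and 218, 216 and 199.5 in P301S Tia1+/- mice. Each of the P301S Tia1+/- libraries lay below each of the PS19 libraries, and the log2 fold change of Tia1+/- over both tau genotypes was −0.23 ± 0.080 (SE; edgeR, adjusted p = 0.199). Atg13, the adaptor that joins ULK1 to FIP200, was from 33.7 to 46.5 CPM in WT and from 46.6 to 59.0 in Tia1+/-, which touch without overlapping. Its log2 fold change there was 0.39 ± 0.13 (SE; edgeR, adjusted p = 0.152), and 0.54 without WT replicate 3 (edgeR, adjusted p = 0.0453). With that library left out, 3.16% of all genes were called. Ulk2 and Atg101 had log2 fold changes between 0.016 and 0.16 and between 0.050 and 0.16 over the same 4 comparisons.

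The lipid kinase complex makes the phosphatidylinositol 3-phosphate that marks the growing membrane, and edgeR on all 12 libraries called 0 of its 6 genes. With the bulb level as a covariate it called Uvrag, a subunit of the later endosomal form of the complex, at log2 fold changes of −0.39 for Tia1+/- against WT (adjusted p = 0.0437), 0.54 for P301S Tia1+/- against Tia1+/- (adjusted p = 0.0393) and 0.85 for the interaction (edgeR, adjusted p = 0.0475). Becn1, which encodes beclin 1, was the steadiest of them, with 98.9, 104 and 101 CPM in WT and 109, 103 and 103 in PS19 libraries, and 104, 114 and 97.2 in Tia1+/- and 113, 109.9 and 109 in P301S Tia1+/- libraries. Its log2 fold change was 0.056 for PS19 against WT, with a 95% interval of −0.10 to 0.22. Of its annotated exon bases 43.9% overlap Cntd1 on the opposite strand, and the strand setting of the counting is not given in the sources used here. Pik3r4, the regulatory subunit, had 38.6, 44.6 and 49.3 CPM in WT and 53.8, 53.5 and 60.2 in Tia1+/-. Every Tia1+/- library lay above every WT library, and the log2 fold change was 0.34 ± 0.12 (SE; edgeR, adjusted p = 0.150). In the mice labelled as carrying tau the same gene had 47.1, 47.6 and 48.5 CPM with both copies of Tia1 and 42.5, 49.1 and 56.03 with 1 disrupted copy, which overlap. Atg14, the subunit that directs the complex to autophagy, gave 20.97, 19.2 and 23.4 CPM in WT, while PS19 gave 24.3, 23.1 and 22.7, Tia1+/- gave 26.4, 21.7 and 28.03 and P301S Tia1+/- gave 25.4, 28.1 and 27.5. All 3 P301S Tia1+/- libraries lay above all 3 PS19 libraries, while Tia1+/- and WT overlapped. The log2 fold change over both tau genotypes was 0.23 ± 0.079 (SE; edgeR, adjusted p = 0.189).

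Among the genes that supply membrane lipid and read it, edgeR on all 12 libraries called 0 of 5, and Wipi2 was higher in every library labelled as carrying tau than in every other. WIPI2 binds the lipid made by the kinase complex and recruits ATG16L1 there. Wipi2 measured 124, 129 and 133 CPM in the WT libraries, 144, 152 and 149 in the PS19, 139.7, 142 and 127 in the Tia1+/- and 157, 156 and 155 in the P301S Tia1+/- libraries. All 6 tau libraries, from 144 to 157 CPM, lay above all 6 others, from 124 to 142. This held for 0.291% of all genes tested in either direction, and among the 38 for Wipi2 and Vcp. The log2 fold change of tau over both Tia1 genotypes was 0.20 ± 0.048 (SE; edgeR, adjusted p = 0.359), with a 95% interval of 0.10 to 0.31. DESeq2's Wald test gave it an adjusted p of 0.0170 in the same contrast, as 1 of the 0.49% of genes it called, and edgeR with the bulb level as a covariate gave 0.0449. As Prnp and Mapt showed no sign of the transgene in the libraries labelled P301S Tia1+/-, the direction for tau rests on their label. Within each Tia1 genotype the values were 0.21 ± 0.068 (SE; edgeR, adjusted p = 0.202) for PS19 against WT and 0.20 ± 0.068 (SE; edgeR, adjusted p = 0.238) for P301S Tia1+/- against Tia1+/-. These 2 comparisons share no library.

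Wipi1, its less abundant relative, had a different order. The gene stood at 7.52, 9.05 and 6.92 CPM in WT and at 9.09, 11.2 and 9.34 in PS19 mice, against 10.7, 10.8 and 9.47 in Tia1+/- and 8.87, 9.36 and 9.16 in P301S Tia1+/- mice. WT lay below PS19 and below Tia1+/- without overlap, and P301S Tia1+/- lay below Tia1+/-. The log2 fold changes were 0.33 for PS19 against WT and −0.18 for P301S Tia1+/- against Tia1+/-, and their difference, the interaction, was −0.51 ± 0.19 (SE; edgeR, adjusted p = 0.156). Atg9a, the scramblase that evens out lipid between the leaflets of the membrane, gave 58.1, 79.9 and 85.6 CPM in WT, while PS19 gave 78.3, 84.4 and 89.3, Tia1+/- gave 102, 93.9 and 71.9 and P301S Tia1+/- gave 66.98, 71.9 and 77.6. P301S Tia1+/- lay below PS19 without overlap, with a log2 fold change of −0.22 ± 0.15 (SE; edgeR, adjusted p = 0.450), and WT overlapped both. Of its exon bases 31.8% are shared with Gm29253 on the same strand. Atg2a, a lipid carrier, was from 21.4 to 25.7 CPM in WT and from 25.4 to 33.7 in Tia1+/-, with a log2 fold change of 0.32 ± 0.13 (SE; edgeR, adjusted p = 0.209). Its paralogue Atg2b had log2 fold changes between −0.080 and −0.057 in the 4 comparisons of groups.

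The ATG4 proteases, which trim LC3 and GABARAP before conjugation and release them afterwards, held the clearest pattern of the 38 genes. Atg4d measured 23.9, 24.7 and 25.6 CPM in the WT libraries, 19.8, 20.01 and 18.4 in the PS19, 23.9, 23.6 and 23.8 in the Tia1+/- and 23.9, 26.03 and 27.2 in the P301S Tia1+/- libraries. The 3 PS19 libraries were the lowest of the 12, and the other 9 lay from 23.6 to 27.2 CPM. Atg4c ran the other way, with 32.3, 58.9 and 65.6 CPM in WT and 70.7, 74.2 and 74.4 in PS19 libraries, and 50.9, 51.4 and 41.6 in Tia1+/- and 46.5, 50.3 and 38.01 in P301S Tia1+/- libraries. Here the 3 PS19 libraries were the highest of the 12. The 3 PS19 libraries stood apart from the 9 others in 1.95% of all genes tested, and among the 38 in these genes alone. The ratio of Atg4c to Atg4d counts was between 3.56 and 4.04 in PS19 and between 1.36 and 2.57 in the other libraries, the lowest being WT replicate 1. This separation follows from the order of the 2 genes and is no further evidence.

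The log2 fold change of Atg4d was −0.35 ± 0.082 (SE; edgeR, adjusted p = 0.159) for PS19 against WT and 0.41 ± 0.081 (SE; edgeR, adjusted p = 0.0691) for P301S Tia1+/- against PS19. In the absence of tau it was −0.056 for Tia1+/- against WT, and the interaction was 0.46 ± 0.11 (SE; edgeR, adjusted p = 0.0723). DESeq2's Wald test gave adjusted p values of 0.0327, 0.00495 and 0.0255 for PS19 against WT, P301S Tia1+/- against PS19 and the interaction. On the 6 libraries of PS19 and WT alone DESeq2 called 0 members and 0.663% of all genes. The call of Atg4d therefore depends on the tool and on the libraries in the fit. Atg4d and Kri1 overlap on opposite strands over 19.3% of the exon bases of Atg4d, and Kri1 averaged 18.8 ± 1.16 CPM in WT against 19.7 ± 1.51 in PS19 (SD, n = 3), and was at 18.2 ± 1.84 in Tia1+/- and 16.3 ± 1.42 in P301S Tia1+/- libraries.

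The log2 fold change of Atg4c was −0.70 ± 0.21 (SE; edgeR, adjusted p = 0.140) for P301S Tia1+/- against PS19, with a 95% interval of −1.17 to −0.23, and 0.48 ± 0.21 (SE; edgeR, adjusted p = 0.297) for PS19 against WT. For P301S Tia1+/- against PS19 the DESeq2 adjusted p was 0.0420. A fit of these 6 libraries alone gave an edgeR adjusted p of 0.00172 for Atg4c, 0.0144 for Atg4d and 0.0389 for Sqstm1, where 20.1% of all genes were called. DESeq2 on the same 6 libraries called the same 3 members and 18.9% of all genes. The bulb markers differ between all libraries of these groups, 5.92 to 14.6 CPM in PS19 against 634 to 780 in P301S Tia1+/-. With the bulb level as a covariate the log2 fold change of Atg4c for P301S Tia1+/- against PS19 was 0.35 (adjusted p = 0.359 from edgeR). In the same edgeR fit it was −0.62 (adjusted p = 0.0273) for Tia1+/- against WT and 0.82 (adjusted p = 0.0325) for P301S Tia1+/- against Tia1+/-. The log2 fold change of Atg4d for P301S Tia1+/- against PS19 lay within 0.34 to 0.46, the range over the alternatives that kept the titles. Atg4c was lowest of all in WT replicate 1, the library with the most bulb RNA. Atg4a had from 3.37 to 6.24 CPM, with a lowest count of 56 in a library, and Atg4b from 63.1 to 76.9. All groups of Atg4a overlap. Atg4b was higher in every P301S Tia1+/- library than in every PS19 and every Tia1+/- library, with an interaction of 0.28 ± 0.11 (SE; edgeR, adjusted p = 0.160).

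Atg3 encodes the E2-like enzyme that hands LC3 and GABARAP to their lipid. It stood at 48.7, 64.03 and 55.97 CPM in WT and at 48.2, 42.6 and 53.7 in PS19 mice, against 48.5, 50.98 and 44.2 in Tia1+/- and 42.8, 38.03 and 37.6 in P301S Tia1+/- mice. P301S Tia1+/- lay below WT and Tia1+/- without overlap, and its highest library was just above the lowest PS19 library. The log2 fold change was −0.26 ± 0.084 (SE; edgeR, adjusted p = 0.171) for Tia1+/- over both tau genotypes and −0.25 ± 0.084 (SE; edgeR, adjusted p = 0.474) for tau over both Tia1 genotypes. Atg12, the ubiquitin-like protein that is joined to ATG5, gave 87.6, 87.3 and 83.95 CPM in WT, while PS19 gave 81.1, 80.3 and 81.01, Tia1+/- gave 72.7, 71.9 and 74.2 and P301S Tia1+/- gave 86.7, 76.8 and 74.0. Tia1+/- lay below WT in every library, with a log2 fold change of −0.24 ± 0.072 (SE; edgeR, adjusted p = 0.109). DESeq2's Wald test called it in that comparison at an adjusted p of 0.0401, as 1 of the 6.6% of genes called, but on the 6 libraries alone it called 0 members and 1.36% of all genes. Atg5 measured 34.1, 33.8 and 33.0 CPM in the WT libraries, 34.2, 33.5 and 33.5 in the PS19, 30.4, 34.6 and 29.3 in the Tia1+/- and 40.8, 35.7 and 33.7 in the P301S Tia1+/- libraries. Its WT and PS19 libraries lay from 33.0 to 34.2 CPM, and P301S Tia1+/- against Tia1+/- overlapped, with a log2 fold change of 0.22 ± 0.092 (SE; edgeR, adjusted p = 0.284), or 0.14 without P301S Tia1+/- replicate 1. Atg16l1, Atg7 and Atg10 had unadjusted p values above 0.05 in all 7 comparisons with edgeR on all 12 libraries. Atg7, the E1-like enzyme, was called with the bulb level as a covariate for P301S Tia1+/- against PS19 at 0.74 (edgeR, adjusted p = 0.0403).

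The promoters of the 38 genes were read for the E-box CACGTG, the core of the sites bound by TFEB, TFE3 and MITF, which are known regulators of autophagy and lysosome genes. RefSeq promoter sequences on GRCm38.p6 were at hand for 31 of the 38 genes, in 35 windows. In the 250 bases before the start, the E-box, which reads the same on both strands, was found in 3 of these 35 windows, those of Atg3, Atg5 and Atg7, and in 6.02% of all 32851 windows. The FoxO motif GTAAACA, searched on both strands, was in 0 of the 35 and in 3.17% of all. The 3 windows with an E-box are printed 5′ to 3′ on the gene's strand with the motif in capitals. The windows of Atg4d and Wipi2 follow as examples of genes in which all PS19 or all tau libraries stood apart. They hold neither motif, nor do the windows of Atg4c and Vcp, the other 2 such genes, which are not printed. The RefSeq start used for Atg7 lies 27999 bases inside the gene as GENCODE M21 annotates it, and that of Wipi2 1886 bases inside, so these windows precede internal starts. All 5 genes lie on the forward strand.
Atg3, chr16:45158579-45158828: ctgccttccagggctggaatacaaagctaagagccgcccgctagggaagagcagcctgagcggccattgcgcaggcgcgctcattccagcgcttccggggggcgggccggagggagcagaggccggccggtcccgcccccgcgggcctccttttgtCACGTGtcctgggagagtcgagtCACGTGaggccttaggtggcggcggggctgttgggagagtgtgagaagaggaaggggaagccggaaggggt
Atg5, chr10:44268089-44268338: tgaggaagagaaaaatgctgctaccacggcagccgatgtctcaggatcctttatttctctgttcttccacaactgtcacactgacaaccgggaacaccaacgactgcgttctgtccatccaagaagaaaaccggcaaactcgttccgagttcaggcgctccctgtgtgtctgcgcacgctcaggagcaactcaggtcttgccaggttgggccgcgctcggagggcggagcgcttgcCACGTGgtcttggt
Atg7, chr6:114670846-114671095: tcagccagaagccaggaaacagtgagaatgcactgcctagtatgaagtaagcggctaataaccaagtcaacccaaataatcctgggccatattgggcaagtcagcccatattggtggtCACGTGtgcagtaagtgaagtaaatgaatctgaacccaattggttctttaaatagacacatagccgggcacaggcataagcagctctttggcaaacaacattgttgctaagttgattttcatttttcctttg
Atg4d, chr9:21265035-21265284: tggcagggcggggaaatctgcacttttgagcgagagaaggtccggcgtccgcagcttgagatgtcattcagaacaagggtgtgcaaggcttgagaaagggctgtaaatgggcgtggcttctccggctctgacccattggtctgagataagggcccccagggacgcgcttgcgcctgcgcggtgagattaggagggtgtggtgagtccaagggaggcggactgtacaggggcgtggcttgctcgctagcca
Wipi2, chr5:142629334-142629583: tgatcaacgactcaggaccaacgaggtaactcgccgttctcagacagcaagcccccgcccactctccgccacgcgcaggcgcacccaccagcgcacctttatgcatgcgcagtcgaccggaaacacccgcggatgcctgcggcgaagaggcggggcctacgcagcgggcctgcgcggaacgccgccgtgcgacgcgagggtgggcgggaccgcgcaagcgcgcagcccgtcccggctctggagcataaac

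The window of Atg3 held 2 E-boxes, the others 1 each. The 3 genes with an E-box did not share a direction. For tau over both Tia1 genotypes their log2 fold changes were −0.25 for Atg3, 0.11 for Atg5 and 0.0079 for Atg7, and for Tia1+/- over both tau genotypes −0.26, 0.013 and 0.11. A motif match is a description of the letters in a window.

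**Figure D5:**
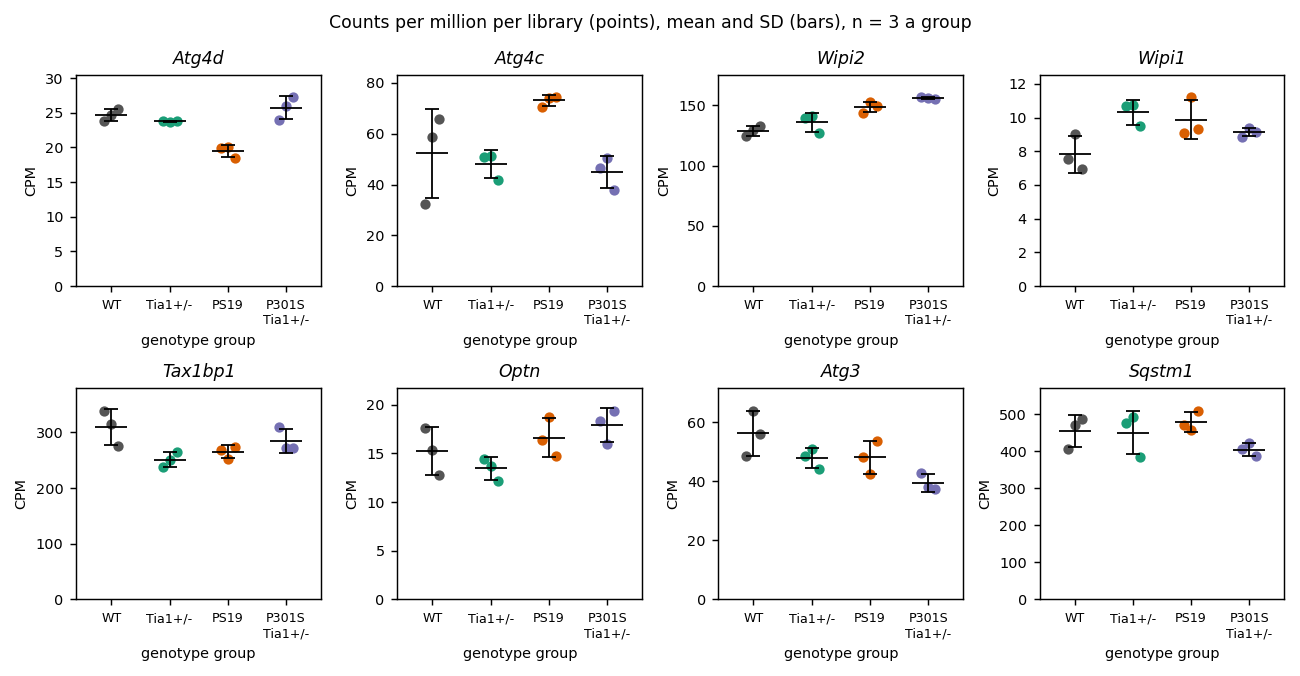
CPM of 8 autophagy genes in each library (points), with the mean and SD of the 3 libraries of each group (bars), on axes that start at 0. Atg4d is lowest and Atg4c highest in the 3 PS19 libraries, Wipi2 is higher in the 6 libraries labelled as carrying tau than in the 6 others, and in the remaining panels at least some groups overlap.

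In the ATG8 family, whose products coat the membrane and hold the receptors, edgeR on all 12 libraries called 0 of 5 genes in any comparison, and all 5 had unadjusted p values above 0.05 in all 7. Gabarapl1 was the leading transcript, with 48.8% of the summed CPM per kb of the family on average over the 12 libraries. Map1lc3a held 15.9%, Gabarapl2 13.6%, Map1lc3b 10.9% and Gabarap 10.8%. Gabarapl1 led in every library, with a share between 42.2% and 51.5%. By group its share was 48.1% ± 5.12 (SD, n = 3) in WT and 50.5% ± 0.893 in PS19, and 49.3% ± 0.586 in Tia1+/- and 47.1% ± 0.530 in P301S Tia1+/- libraries. With the union of all annotated exons as the length, which adds retained introns to Map1lc3b, the share of Gabarapl1 was 54.8% and that of Map1lc3b 4.57%. Of the exon bases of Gabarapl1 28.3% overlap 1700101I11Rik on the opposite strand.

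Map1lc3b, the LC3 gene whose protein is the usual marker of autophagosomes, stood at 163, 192 and 208 CPM in WT and at 202, 186 and 216 in PS19 mice, against 211, 216 and 169 in Tia1+/- and 204, 199 and 195 in P301S Tia1+/- mice. The groups overlap, and the 2 lowest libraries were WT replicate 1 and Tia1+/- replicate 3. Its log2 fold change was 0.10 for PS19 against WT (95% interval −0.15 to 0.35) and −0.015 for P301S Tia1+/- against PS19 (95% interval −0.27 to 0.24). The fit with the bulb level as a covariate called it at 0.50 (adjusted p = 0.0431) for P301S Tia1+/- against PS19 and at 0.46 (adjusted p = 0.0385 from edgeR) for P301S Tia1+/- against Tia1+/-. Gabarap had from 95.9 to 118 CPM over all libraries. Map1lc3a had 133, 147 and 85.7 CPM in the Tia1+/- libraries, and replicate 3, the library with striatum markers, was the lowest of the 12.

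Among the cargo receptors edgeR on all 12 libraries called 0 of 5 genes. Sqstm1, which encodes p62, gave 407, 472 and 489 CPM in WT, while PS19 gave 472, 457 and 510.4, Tia1+/- gave 476, 492 and 385 and P301S Tia1+/- gave 405, 422 and 387. P301S Tia1+/- lay below PS19 in every library, while WT and Tia1+/- overlapped both. Mrnip overlaps 17.3% of the exon bases of Sqstm1 on the opposite strand. The log2 fold change was −0.25 ± 0.11 (SE; edgeR, adjusted p = 0.245) for P301S Tia1+/- against PS19 and 0.074 for PS19 against WT, where the 95% interval was −0.16 to 0.31. Tax1bp1, a receptor for ubiquitinated cargo, measured 339, 315 and 276 CPM in the WT libraries, 269, 252 and 275 in the PS19, 238, 250.3 and 265 in the Tia1+/- and 309, 273 and 272 in the P301S Tia1+/- libraries. Every WT library lay above every Tia1+/- and every PS19 library, and P301S Tia1+/- lay above Tia1+/-. The log2 fold changes were −0.30 ± 0.094 (SE; edgeR, adjusted p = 0.120) for Tia1+/- against WT and −0.23 for PS19 against WT. The interaction was 0.41 ± 0.13 (SE; edgeR, adjusted p = 0.120), and −0.017 with the bulb level as a covariate. DESeq2 called Tax1bp1 for Tia1+/- against WT at an adjusted p of 0.0386, but not on the 6 libraries alone.

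Optn encodes optineurin, a receptor for damaged mitochondria and aggregates that is mutated in some forms of amyotrophic lateral sclerosis. It stood at 17.6, 15.3 and 12.8 CPM in WT and at 16.3, 18.7 and 14.8 in PS19 mice, against 14.4, 13.7 and 12.2 in Tia1+/- and 18.3, 15.95 and 19.4 in P301S Tia1+/- mice. All 3 P301S Tia1+/- libraries lay above all 3 Tia1+/- libraries, with a log2 fold change of 0.41 ± 0.14 (SE; edgeR, adjusted p = 0.240). PS19 and WT overlapped, with a log2 fold change of 0.12. Nbr1, a relative of p62, had 279.9, 276 and 279 CPM in P301S Tia1+/- and from 234 to 274 in the other 9 libraries. Together with Wipi2 it was 1 of 2 members in which the P301S Tia1+/- libraries stood apart from all others, as they did in 4.33% of all genes. Its log2 fold change was 0.14 ± 0.074 (SE; edgeR, adjusted p = 0.330) against PS19. Calcoco1, linked to turnover of the endoplasmic reticulum, had 30.7, 41.3 and 38.02 CPM in WT and 41.6, 41.6 and 42.8 in Tia1+/-, which do not overlap, and a log2 fold change of 0.19 ± 0.076 (SE; edgeR, adjusted p = 0.261) over both tau genotypes.

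Of the late genes, Vcp had the narrowest spread of all 38, with 419, 410.4 and 414 CPM in WT and 432, 442 and 429 in PS19 libraries, and 416, 421 and 411 in Tia1+/- and 441, 454 and 431 in P301S Tia1+/- libraries. As for Wipi2, all 6 libraries labelled as carrying tau lay above the 6 others. The difference was small, with a log2 fold change of 0.078 ± 0.044 (SE; edgeR, adjusted p = 0.681) for tau over both Tia1 genotypes. Part of Vcp, 7.26% of its exon bases, overlaps 1700022I11Rik on the opposite strand. Epg5 gave 82.4, 102 and 104 CPM in WT, while PS19 gave 106, 107 and 119, Tia1+/- gave 119, 112 and 97.5 and P301S Tia1+/- gave 93.4, 106 and 107. PS19 lay above WT without overlap, with a log2 fold change of 0.20 ± 0.11 (SE; edgeR, adjusted p = 0.398) and a 95% interval of −0.047 to 0.44, and WT replicate 1 was again the lowest library.

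Other genes of the pathway were counted in the same fit from a list of 63, of which 62 were tested. It holds 22 regulators, such as mTOR, AMPK and TSC subunits and the TFEB family, and 41 further genes of membrane formation, fusion and selective autophagy. In each of the 7 comparisons 0 of the 62 had an adjusted p under 0.05 with edgeR. In the order used above, the numbers at an unadjusted p under 0.05 were 8, 7, 12, 6, 12, 2 and 12, of which 2, 6, 7, 3, 8, 0 and 5 were higher. These shares of 62 lay below those of all genes in 5 comparisons and slightly above them for Tia1+/- against WT and for Tia1+/- over both tau genotypes. The largest of these log2 fold changes, over all 7 comparisons, belonged to Mitf, a member of the TFEB family. It measured 52.5, 19.6 and 14.8 CPM in the WT libraries, 10.3, 12.4 and 12.4 in the PS19, 11.9, 11.8 and 23.8 in the Tia1+/- and 35.3, 33.7 and 37.4 in the P301S Tia1+/- libraries, so that its highest libraries were those with the most bulb RNA. The interaction for Mitf was 2.47 ± 0.59 (SE; edgeR, adjusted p = 0.0707). Tfeb itself had 5.44, 3.55 and 3.50 CPM in WT, against 4.21, 4.24 and 4.28 in PS19 libraries, with a log2 fold change of 0.027 between PS19 and WT. Rheb, the activator of mTOR, had 257, 161 and 135 CPM in WT against 126, 113 and 113 in PS19 libraries, with a log2 fold change of −0.65 ± 0.20 (SE; edgeR, adjusted p = 0.189), and its highest library was WT replicate 1. Snap29, a fusion protein of the autophagosome, had 46.7, 34.3 and 37.6 CPM in WT and 27.2, 26.9 and 29.3 in Tia1+/-, with a log2 fold change of −0.51 ± 0.12 (SE; edgeR, adjusted p = 0.0696).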

How the data were processed

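RNA from the cortex was sequenced from 1 stranded total RNA library per mouse, with 3 mice in each of the 4 groups WT, PS19, Tia1+/- and P301S Tia1+/-. The authors aligned reads to mm10 with Bowtie and TopHat (TopHat2 2.0.6 in the submitters' processing notes), assigned them to genes with featureCounts and deposited raw counts for 24062 gene symbols in 12 libraries, 3287 of them without a count. The gene annotation and strand setting are not given in the sources used here. Libraries were grouped by title. The members and gene lists were chosen with earlier results of these data known.

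Counts were normalized with TMM and filtered with filterByExpr, which kept 15440 genes, and each gene was then tested in edgeR 4.0.16 (R 4.3.3) by quasi-likelihood. All 12 libraries entered 1 fit with a mean per group, and p values were adjusted over all genes by the Benjamini-Hochberg method, with a threshold of 0.05. An adjusted p sets a difference between groups against the spread within groups, estimated over all 12 libraries with information shared between genes. With 3 libraries a group, it speaks for these libraries only. DESeq2 1.42.0, other filters and size factors, the replicate number as a block, the bulb level as a covariate, the 6 libraries compared alone, the genotype entries in place of the titles, and each library left out in turn were alternatives. DESeq2 on 6 libraries was added after the data were seen. The scripts were tested on simulated counts. Lengths are exon unions of RefSeq mRNAs in GENCODE M21 (GRCm38). Genes named are, in each comparison, the 3 members with the smallest p, the highest and lowest per kilobase in each role, and Ulk1, Becn1, Atg9a, Atg5, Map1lc3b, Sqstm1 and Epg5. Others were chosen after their values were seen.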

Additional observations from a re-analysis of the deposited data

Results flagged for a closer look

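By the sample titles, the tau groups of 3 members differed from their controls in opposite directions in the 2 Tia1 genotypes, with no overlap of libraries. The difference was tested as the interaction. With the genotype field in place of the titles, P301S Tia1+/- against Tia1+/- is reversed in sign. The 3 members then move in the same direction in both Tia1 genotypes, so the opposite directions below rest on the titles. Atg4d was lower in every PS19 than in every WT library and higher in every P301S Tia1+/- than in every Tia1+/- library, with an interaction of 0.46 on the log2 scale (adjusted p = 0.0723 from edgeR). Tax1bp1 took the same directions, with an interaction of 0.41 (adjusted p = 0.120 from edgeR). Wipi1 took the reverse directions, with an interaction of −0.51 (adjusted p = 0.156 from edgeR). edgeR on all 12 libraries called none of these interactions, while DESeq2's Wald test called that of Atg4d (adjusted p = 0.0255).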

How the results depend on the processing

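Of the 38 members, 0 were called in all 7 comparisons with DESeq2's size factors, without a filter and with at least 10 counts in every library. With the genotype entries in place of the titles 0 were called as well. That setting was not run for PS19 against WT, whose labels do not change. DESeq2's Wald test called 1 for PS19 against WT, 2 for P301S Tia1+/- against PS19, 2 for Tia1+/- against WT, 1 for the interaction and 1 for tau over both Tia1 genotypes. The 6 libraries alone gave 3 for P301S Tia1+/- against PS19 with edgeR and 3 with DESeq2. The bulb covariate gave 2, 3, 4, 1 and 1 for P301S Tia1+/- against PS19, Tia1+/- against WT, P301S Tia1+/- against Tia1+/-, the interaction and tau over both Tia1 genotypes. Among the fits that kept the titles, it also moved the medians of the members most. They were −0.084 for PS19 against WT, 0.21 for P301S Tia1+/- against PS19 and −0.10 for Tia1+/- against WT. For P301S Tia1+/- against Tia1+/- the median was 0.18, and for the interaction 0.34. The covariate turned the log2 fold changes of Atg4c and Atg3 for P301S Tia1+/- against PS19 to 0.35 and 0.062. It also turned the interaction of Tax1bp1 to −0.017. Bulb level separates PS19 from P301S Tia1+/- in every library but sets WT replicate 1 apart from the other WT libraries. It also sets Tia1+/- replicate 3, the library with striatum markers, apart from the other Tia1+/- libraries. The cause was not tested. With 1 library left out, members called ranged from 0 to 1 for Tia1+/- against WT. The 1 was Atg13 without WT replicate 3, where 3.16% of all genes were called. For Tia1+/- over both tau genotypes they ranged from 0 to 3. The 3 were Atg3, Atg4c and Rb1cc1 without WT replicate 1, where 6.27% of all genes were called. In the other comparisons 0 members were called with 1 library left out. The medians then ranged from 0.016 to 0.14, −0.018 to 0.034, −0.030 to 0.11, −0.019 to 0.069, −0.089 to 0.012, 0.0096 to 0.043 and −0.0027 to 0.069 in the order of the report.

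With the replicate number as a block, 0 members were called in all 7 comparisons, and the median for PS19 against WT was 0.090. The correlation of same-numbered libraries ranged from −0.538 to 0.346, so the numbers do not pair the groups as a whole. For Tia1+/- with P301S Tia1+/- all 3 were above 0.1 (0.123, 0.134 and 0.240), and the block changed no call there. Over the single genes named by p, 314 of 330 alternative values kept direction and side of the threshold, 13 passed it and 3 reversed. The genotype entries in place of the titles are not among these values. With those entries, P301S Tia1+/- against Tia1+/- is reversed in sign for every gene.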
